A study of Mus musculus with 8 samples.

Results

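The genes described here are 38 genes of the interferon response and of antigen presentation, out of 55418 genes counted in mouse embryonic stem cells (ESCs) that had lost members of the HIRA histone chaperone complex. They were listed by name in 4 roles. There were 8 sensors of foreign nucleic acid and their effectors, 5 transcription factors, 18 interferon-stimulated genes and 7 genes of class I antigen presentation. Samd9l was singled out because its level after Hira depletion was among the largest increases of that comparison. Its Hira and control values are therefore a description, and members are given without p-values wherever Hira was compared with control.

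RNA-seq was performed on 8 libraries of E14 cells, a feeder-free line labelled as strain 12910la and grown on gelatin in serum and LIF. Every group received 1000 ng of a pSuper puro plasmid and, from 24 h after transfection, 1 µg/ml puromycin during 3 days, as the labels state. The study's methods give a slightly different concentration and start of selection. The plasmid carried shRNA against Hira, Ubn1 or Ubn2 in the 3 depleted groups, with 2 libraries each. The 2 control libraries are labelled wild type, and the study's methods describe the control shRNA as directed at luciferase. Cells were selected as a pool rather than as clones, and nothing states that the libraries of a group came from separate cultures, so p-values measure only the spread between these libraries, which may be technical. Total counts on genes lay between 19710040 and 32706053. The plasmids lowered their targets in both libraries of each group. Hira was at 89.4 and 98.8 CPM (counts divided by the library's total on genes, scaled by the TMM method and brought to a common size) in control and at 10.1 and 10.4 after its depletion. Ubn1 went from 53.0 and 44.6 to 23.7 and 23.8 CPM and Ubn2 from 50.1 and 52.3 to 29.9 and 24.4 CPM, so more of the targeted transcript was left after Ubn1 or Ubn2 shRNA than after Hira shRNA. The ESC factor Pou5f1 was present at 946 to 1271 CPM across the libraries and Sox2 at 351 to 445 CPM.

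Cells recognise viral RNA and DNA through sensors such as RIG-I and MDA5, which switch on interferon genes through factors of the IRF family. Secreted interferon binds its receptors on the same or neighbouring cells, and STAT and IRF factors then turn on the interferon-stimulated genes, many of which block steps of viral replication. The same signal raises class I antigen presentation, in which the immunoproteasome cuts proteins into peptides, the TAP transporter carries them into the endoplasmic reticulum, and class I heavy chains bound to beta-2 microglobulin show them on the cell surface. Pluripotent cells are known for a weak interferon system and for low class I levels. The HIRA complex places a variant histone on chromatin outside of DNA replication, with Ubn1 and Ubn2 as alternative partners of Hira.

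Promoter windows of 300 bases, from 250 bases before to 50 bases after a transcription start, were available from RefSeq on GRCm38.p6 for 31 of the 38 members. The 10-letter interferon-stimulated response element GAAANNGAAA was searched on both strands. It was found in 13 of the 37 windows of these 31 members and in 3.44% of all 32851 windows. The 13 windows belong to 13 members, B2m, Bst2, Ddx58, Eif2ak2, Ifih1, Ifit1, Ifit3, Ifitm2, Ifitm3, Isg15, Oas1a, Rsad2 and Stat2. The gamma-activated site TTCNNNGAA, which STAT dimers bind, was found in 8 of the 37 windows and in 8.30% of all windows. The 8 windows belong to 8 members, Adar, Bst2, Eif2ak2, Ifit2, Ifitm3, Irf1, Oas1a and Psmb8. Bst2, Eif2ak2, Ifitm3 and Oas1a hold both. A match describes these letters only and says nothing about binding. The 6 sequences shown are the parts of the windows that precede the start and lie outside every annotated exon, written 5′ to 3′ on the strand of the gene, with bases of a response element in capitals. Samd9l, Xaf1 and H2-K1 are shown because they had the values described below with no match to GAAANNGAAA in the window. Other spellings of the element were not searched. Oas1a and B2m are shown because they changed after Ubn2 depletion and have a match, and Isg15 because it has overlapping matches and almost no reads.
Samd9l, chr6:3399573-3399821, minus strand: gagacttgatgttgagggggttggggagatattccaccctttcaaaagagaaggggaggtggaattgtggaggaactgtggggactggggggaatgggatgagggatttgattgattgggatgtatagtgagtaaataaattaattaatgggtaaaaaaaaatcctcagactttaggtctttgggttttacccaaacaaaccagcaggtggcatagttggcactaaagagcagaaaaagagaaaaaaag
Xaf1, chr11:72301379-72301628, plus strand: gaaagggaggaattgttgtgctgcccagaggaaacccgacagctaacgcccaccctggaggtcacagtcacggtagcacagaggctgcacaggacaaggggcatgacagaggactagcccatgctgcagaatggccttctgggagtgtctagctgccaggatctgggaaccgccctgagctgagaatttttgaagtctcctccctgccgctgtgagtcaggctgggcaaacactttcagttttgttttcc
H2-K1, chr17:34000348-34000597, minus strand: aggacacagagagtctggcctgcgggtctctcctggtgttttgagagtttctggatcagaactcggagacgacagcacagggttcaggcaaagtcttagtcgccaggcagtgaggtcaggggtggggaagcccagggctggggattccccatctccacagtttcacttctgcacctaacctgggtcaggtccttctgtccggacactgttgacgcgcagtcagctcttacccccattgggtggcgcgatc
Oas1a, chr5:120907526-120907775, minus strand: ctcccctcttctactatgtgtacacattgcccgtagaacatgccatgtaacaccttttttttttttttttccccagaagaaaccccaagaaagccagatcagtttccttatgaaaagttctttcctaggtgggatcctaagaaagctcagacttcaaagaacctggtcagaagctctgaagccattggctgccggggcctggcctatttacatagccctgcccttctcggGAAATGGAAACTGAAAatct
B2m, chr2:122147437-122147685, plus strand: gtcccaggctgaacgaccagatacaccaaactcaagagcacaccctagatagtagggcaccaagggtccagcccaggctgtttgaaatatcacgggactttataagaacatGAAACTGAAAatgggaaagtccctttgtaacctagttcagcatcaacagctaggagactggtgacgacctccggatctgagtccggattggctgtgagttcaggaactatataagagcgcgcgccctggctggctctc
Isg15, chr4:156200819-156201068, minus strand: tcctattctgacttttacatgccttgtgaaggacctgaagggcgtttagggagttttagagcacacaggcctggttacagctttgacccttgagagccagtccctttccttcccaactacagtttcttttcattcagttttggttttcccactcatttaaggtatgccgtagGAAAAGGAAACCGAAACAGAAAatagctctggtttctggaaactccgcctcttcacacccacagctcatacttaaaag

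Levels of the members spread over more than 3 orders of magnitude. The genes with the highest level per length of exon were the small membrane proteins Ifitm2, Ifitm1 and Ifitm3, which block fusion of viruses, at 478, 150.5 and 142 CPM per kb in control. Bst2, the tetherin that holds budding virions on the cell, followed at 69.3 CPM per kb. The class I chains H2-K1 and H2-D1 and their partner B2m were at 25.8, 21.3 and 21.3 CPM per kb. At the other end, Ifih1, Irf7, Ifit1, Ifit3, Isg15 and Usp18 had between 0 and 11 counts in every library and did not pass the filter on low counts in any comparison.

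**Figure D1:**
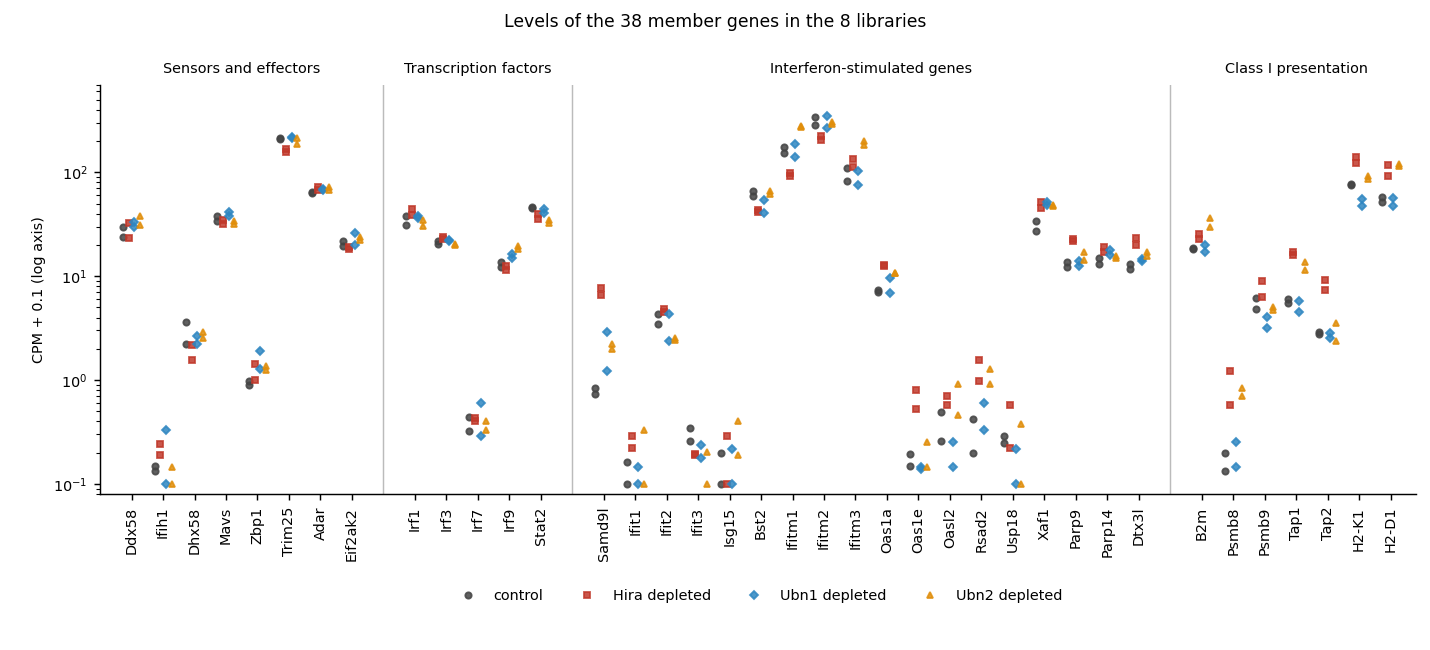
CPM of each of the 38 genes in each of the 8 libraries, with 0.1 added and on a log axis, grouped by role; each point is 1 library and its shape and colour give the condition. Most sensors and transcription factors lie close together in the 4 conditions, as does Parp14, whereas Samd9l, Psmb8, Tap1, Tap2 and the class I chains separate.

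A gene was called when its fold change was over 1.5 and its p, from the quasi-likelihood test of edgeR and adjusted over all genes tested by the Benjamini-Hochberg method, was under 0.05. These p-values are the ones meant by adjusted p throughout, unless DESeq2 is named. After Hira depletion, 32 members were tested, of which 12 were called higher and 1 lower, where 10.8% and 5.4% of all genes tested were called. This comparison took part in the choice of genes, and nothing is read from these counts. After Ubn1 depletion, 28 members were tested and 2 were called higher and 0 lower, against 1.53% and 1.56% of all genes. At an unadjusted p under 0.05 without the fold threshold, 3 members were higher and 3 lower with Ubn1, and DESeq2 called 1 and 0. After Ubn2 depletion, 30 members were tested and 10 were called higher and 1 lower, against 9.59% and 8.75% of all genes. The 3 comparisons share their control libraries. The median log2 fold change of the members tested was 0.37 after Hira, 0.04 after Ubn1 and 0.27 after Ubn2 depletion, beside medians of all genes between -0.00 and 0.01. These counts hold genes that entered the test through the depleted group alone, having no control library above the minimum level, and could pass the filter only by being higher there. They were Oas1e, Oasl2, Rsad2 and Psmb8 with Hira, and Rsad2 and Psmb8 with Ubn2.

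Direct comparison of the depletions used no control library. Between Hira and Ubn2 depletion, 31 members were tested and 4 were called higher with Hira and 4 lower, against 12.0% and 5.61% of all genes. Between Ubn2 and Ubn1 depletion, 30 members were tested and 7 were called higher with Ubn2 and 0 lower, against 4.61% and 4.09% of all genes. At adjusted p under 0.05 without the fold threshold, the single member lower with Ubn2 than with Ubn1 was Stat2, and at an unadjusted p under 0.05 there were 2. DESeq2 called 6 higher and 0 lower. Of the 7 genes, 5 belong to class I presentation and the other two are Ifitm1 and Ifitm3. Psmb8 is among them and entered the test through the Ubn2 libraries alone.

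**Figure D2:**
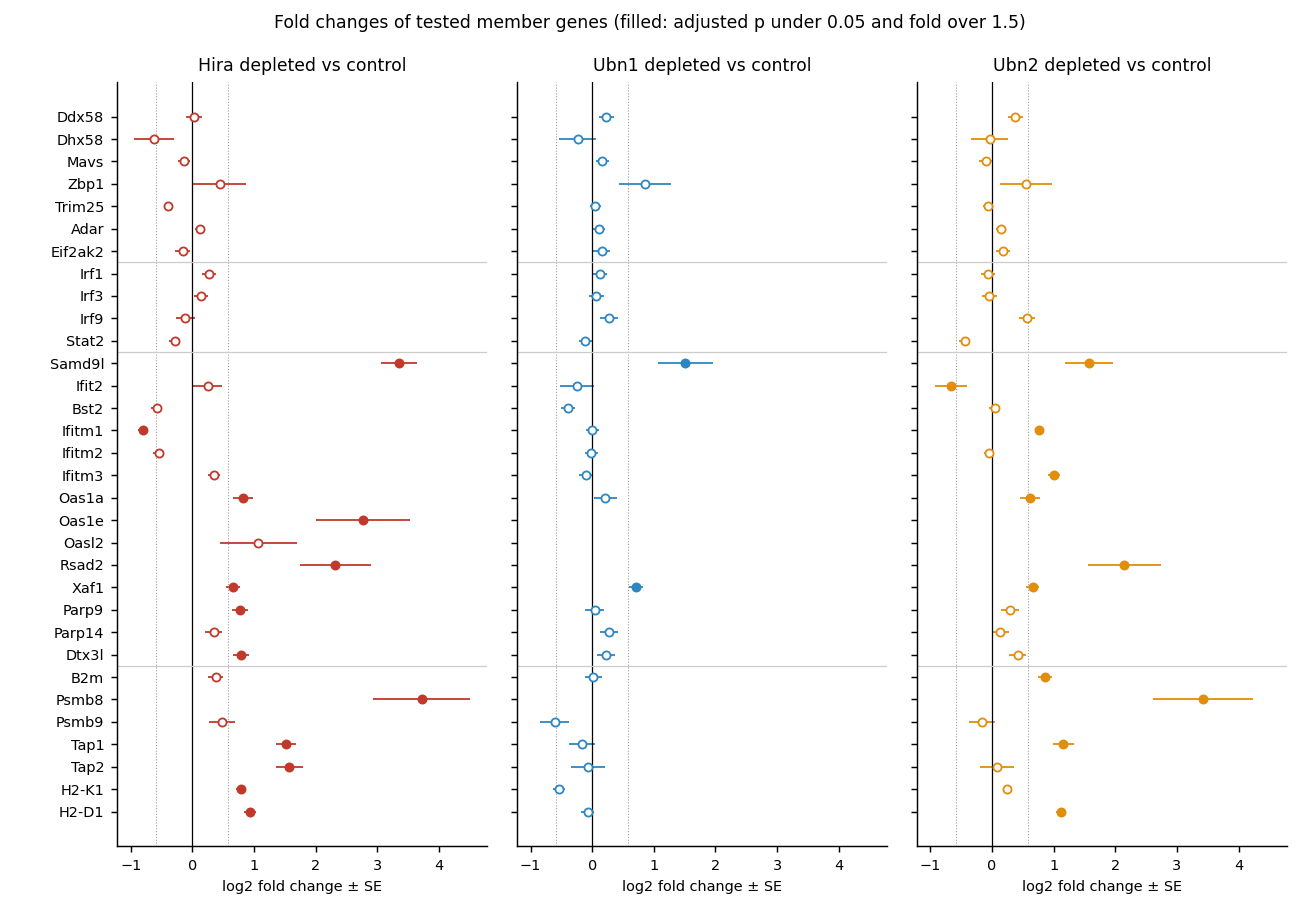
Log2 fold change ± SE of each member tested against control after depletion of Hira, Ubn1 or Ubn2, from 2 libraries against 2; filled points were called and dotted lines mark a fold of 1.5. No filled point stands among the 7 sensors and 4 transcription factors tested in any of the 3 panels. These are too few to set against the 1.53% to 10.8% of all genes called in a direction. Ubn1 has 2 filled points, Samd9l and Xaf1.

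Of the sensors and their effectors, 0 of the 7 tested were called by edgeR or by DESeq2 in the 5 comparisons. Over all genes, edgeR called between 1.53% and 12.0% in a given direction and comparison, and 7 genes are too few to set against these shares. At an unadjusted p under 0.05, 1 was past it in each comparison, except in Hira against Ubn2 with 3, all lower with Hira. Their median log2 fold change was -0.14 after Hira, 0.15 after Ubn1 and 0.15 after Ubn2 depletion. Ddx58, which encodes the RNA sensor RIG-I, was at 23.9 and 29.6 CPM in control and 38.2 and 30.8 after Ubn2 depletion. The Ubn2 libraries were above both control libraries, with a log2 fold change of 0.38 ± 0.12 (SE, adjusted p = 0.0158), under the fold threshold. Ifih1, the related sensor MDA5, had at most 6 counts in any library, and its level could not be compared at this depth. Dhx58, the LGP2 protein that tunes both, lay at 1.47 to 3.505 CPM, with overlapping Ubn1, Ubn2 and control libraries. Mavs, the mitochondrial adaptor below RIG-I and MDA5, lay at 31.5 to 41.7 CPM.

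Trim25, the ubiquitin ligase that activates RIG-I, was at 208 and 215 CPM in control. It stood at 158 and 166 CPM after Hira depletion, below all other libraries, and at 212 and 185 after Ubn2 depletion. Hira against Ubn2 gave -0.30 ± 0.08 (SE, adjusted p = 0.00999), again under the fold threshold. Adar, which edits double-stranded RNA, lay at 63.2 to 71.8 CPM, and 16.8% of its exon bases also belong to Chrnb2 on the other strand. Eif2ak2, the kinase PKR that halts translation on double-stranded RNA, lay at 18.1 to 25.9 CPM. It was lower with Hira than with Ubn2 depletion at -0.31 ± 0.11 (SE, adjusted p = 0.0475), under the fold threshold. Zbp1, a sensor of left-handed nucleic acid, was sparse at 0.876 and 0.796 CPM in control and 1.18 and 1.81 after Ubn1 depletion. Its log2 fold change with Ubn1 was 0.86 ± 0.42 (SE, adjusted p = 0.222), so a difference was not detectable.

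Of the 5 transcription factors, 4 were tested and Irf9 was the one called, by edgeR and by DESeq2, in the direct comparison of Hira with Ubn2. There, 12.0% of all genes were called higher and 5.61% lower with Hira. In the other 4 comparisons both tools called 0, where 2 factors were past an unadjusted p of 0.05 in each except Ubn1 against control, with 0. Over all genes the shares called in a direction in those 4 lay between 1.53% and 10.8%, and 4 genes are too few to set against them. Irf9 is the DNA-binding part of the complex that recognises the response element. It was at 13.7 and 12.2 CPM in control, 12.5 and 11.4 after Hira, 16.3 and 14.9 after Ubn1 and 19.6 and 18.1 after Ubn2 depletion. The Ubn2 libraries were the highest and the Hira and control libraries overlapped. Irf9 was lower with Hira than with Ubn2 depletion by a log2 fold change of -0.65 ± 0.13 (SE, adjusted p = 0.00145), and it was called in that comparison whichever library was left out. Ubn2 against control gave 0.56 ± 0.13 (SE, adjusted p = 0.00189), just under the fold threshold, which it passed without control replicate 1 at 0.64 and without Ubn2 replicate 2 at 0.62.

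Stat2, the partner of Irf9, was at 45.6 and 46.7 CPM in control, 40.7 and 44.1 after Ubn1 and 32.4 and 34.6 after Ubn2 depletion, with both Ubn2 libraries below all control and Ubn1 libraries. The log2 fold change of Ubn2 was -0.45 ± 0.09 (SE, adjusted p = 6.79e-04) against control and -0.33 ± 0.10 (SE, adjusted p = 0.0363) against Ubn1, both under the fold threshold. Irf1, the factor induced most strongly by interferon gamma, lay at 30.2 to 44.2 CPM and was higher with Hira than with Ubn2 depletion by 0.36 ± 0.10 (SE, adjusted p = 0.0146), under the fold threshold. Irf3, which is activated by the sensors directly, lay at 19.9 to 23.6 CPM. Irf7, the amplifier of the type I response, had at most 11 counts in a library.

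Of the 18 interferon-stimulated genes, 14 were tested after Hira, 11 after Ubn1 and 12 after Ubn2 depletion. There were 7 called higher and 1 lower with Hira (10.8% and 5.4% over all genes), 2 and 0 with Ubn1 (1.53% and 1.56%), and 6 and 1 with Ubn2 (9.59% and 8.75%). The median log2 fold change of those tested was 0.72, 0.04 and 0.51, in the same order.

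Samd9l, a restriction factor that halts translation in infected cells, lies at chr6:3372257-3399572 on the minus strand of GRCm38. It was at 0.730 and 0.637 CPM in control, 6.45 and 7.52 after Hira, 2.78 and 1.11 after Ubn1 and 1.87 and 2.12 after Ubn2 depletion. The Hira libraries were the highest, the Ubn1 and Ubn2 libraries lay between them and control, and the spread was widest with Ubn1. Samd9l gave a log2 fold change of 3.35 ± 0.29 (SE) with Hira, 1.51 ± 0.44 with Ubn1 and 1.57 ± 0.39 with Ubn2, all 3 against the control libraries that took part in its choice. These values are a description. With Ubn1, Samd9l was no longer called without Ubn1 replicate 1 (0.71), without control replicate 1 (1.61) or without control replicate 2 (1.38). Each of these changes was still over the fold threshold, and the largest drop came without Ubn1 replicate 1. Here and below, a value after a left-out library is the log2 fold change without it. The Hira libraries exceeded the Ubn2 libraries by 1.80 ± 0.24 on the log2 scale. Between Ubn2 and Ubn1 depletion, on libraries that the choice did not use, Samd9l differed by 0.07 ± 0.39 (SE, adjusted p = 0.928), with an interval of -0.69 to 0.82.

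Xaf1, an antagonist of inhibitors of apoptosis, was the other gene called higher in the 3 depletions, with the same control libraries in each. It was at 34.2 and 27.3 CPM in control, 51.9 and 45.4 after Hira, 51.8 and 48.0 after Ubn1 and 47.1 and 48.2 after Ubn2 depletion. All 6 depleted libraries were above both control libraries, and the depletions overlapped each other. Xaf1 gave a log2 fold change of 0.66 ± 0.11 (SE) with Hira. It rose by 0.71 ± 0.12 (SE, adjusted p = 1.26e-04) with Ubn1 and by 0.66 ± 0.11 (SE, adjusted p = 5.11e-05) with Ubn2. Without control replicate 2 the changes were 0.49, 0.54 and 0.48 and missed the fold threshold in each comparison. Without Hira replicate 1 the change with Hira was 0.57, also under it.

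Oas1a, Oas1e and Oasl2 belong to the oligoadenylate synthetases and their relatives, which in the active members make the signal for RNase L. Oas1a was at 7.25 and 6.91 CPM in control, 12.7 and 12.4 after Hira, 6.79 and 9.45 after Ubn1 and 10.7 and 10.6 after Ubn2 depletion. The Hira and Ubn2 libraries were above both control libraries, and the Ubn1 libraries overlapped with control. Oas1a gave a log2 fold change of 0.82 ± 0.16 (SE) with Hira, and Oas1a rose by 0.61 ± 0.16 (SE, adjusted p = 0.00522) with Ubn2. Without control replicate 2 the change with Ubn2 was 0.56, under the fold threshold. Of the 50-base words in its transcripts, 57.6% also occur in Oas1g, so its counts may hold reads of that copy or lack shared ones. Oas1e was sparse, at 0.0487 and 0.0955 CPM in control, 0.426 and 0.709 after Hira, 0.0455 and 0.0384 after Ubn1 and 0.0457 and 0.152 after Ubn2 depletion. The ratio of Hira to control was 6.97 (95% counting interval 2.45 to 27.3), and the call was lost without control replicate 1 (2.48), control replicate 2 (3.36) or Hira replicate 2 (2.40). Oas1e passed the filter through the Hira libraries alone, so the ratio and its interval are a description and not a test. Oasl2 lay at 0.0455 to 0.809 CPM and was not called.

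Rsad2 encodes viperin, which makes a chain-terminating nucleotide. It was at 0.0974 and 0.318 CPM in control, 0.882 and 1.47 after Hira, 0.228 and 0.4996 after Ubn1 and 1.19 and 0.809 after Ubn2 depletion. The Hira and Ubn2 libraries were above the control and Ubn1 libraries. Rsad2 gave a log2 fold change of 2.32 ± 0.58 (SE) with Hira and 2.15 ± 0.59 (SE) with Ubn2. In both comparisons it passed the filter through the depleted group alone and could be tested only because it was higher there, so its p is not given. The call with Hira was lost without Hira replicate 2 (1.94). That with Ubn2 was lost without control replicate 1 (1.66) and without Ubn2 replicate 1 (1.85), and DESeq2 did not make it.

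Parp9 and Dtx3l form a complex that ubiquitinates histones and viral proteins. They are transcribed in opposite directions on chromosome 16 and share 458 exon bases. Parp9 was at 12.0 and 13.7 CPM in control, 22.9 and 21.5 after Hira, 13.9 and 12.5 after Ubn1 and 14.2 and 16.9 after Ubn2 depletion. Dtx3l was at 11.6 and 12.9 CPM in control, 19.7 and 23.2 after Hira, 14.5 and 14.0 after Ubn1 and 17.0 and 15.4 after Ubn2 depletion. The Hira libraries were the highest for both genes. With Hira the log2 fold changes were 0.78 ± 0.13 and 0.79 ± 0.14 (SE). With Ubn2, Dtx3l gave 0.42 ± 0.14 (SE, adjusted p = 0.0198), under the fold threshold, and Parp9 gave 0.29 ± 0.14 (SE, adjusted p = 0.118). Hira exceeded Ubn2 by 0.51 ± 0.13 (SE, adjusted p = 0.00584) for Parp9 and by 0.40 ± 0.13 (SE, adjusted p = 0.0256) for Dtx3l, both under the fold threshold, which Parp9 passed without Ubn2 replicate 2 (0.64). Parp14, a neighbour on the same chromosome, lay at 12.9 to 19.0 CPM and was not called.

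The Ifitm genes differed from one another although they lie within one cluster on chromosome 7. Ifitm1 was at 154 and 175 CPM in control, 97.8 and 92.6 after Hira, 140.4 and 187 after Ubn1 and 278 and 273 after Ubn2 depletion. Both Hira libraries were below, and both Ubn2 libraries above, all other libraries, while the Ubn1 libraries spanned the control range. Ifitm1 gave a log2 fold change of -0.80 ± 0.08 (SE) with Hira. Ifitm1 rose with Ubn2 by 0.76 ± 0.07 (SE, adjusted p = 5.60e-08). Hira was below Ubn2 with a log2 fold change of -1.54 ± 0.07 (SE), given as a description. Ubn2 was above Ubn1 by 0.76 ± 0.11 (SE, adjusted p = 1.82e-04), which fell under the fold threshold without Ubn1 replicate 1 (0.57).

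Ifitm3 was at 82.6 and 109 CPM in control, 113 and 134 after Hira, 75.6 and 103 after Ubn1 and 198 and 183 after Ubn2 depletion. The Ubn2 libraries were the highest, and the Hira libraries lay above control by less than the fold threshold, at 0.35 ± 0.10 (SE). Ifitm3 rose with Ubn2 by 1.00 ± 0.09 (SE, adjusted p = 2.31e-08) against control and by 1.10 ± 0.11 (SE, adjusted p = 5.59e-06) against Ubn1. Hira was below Ubn2 with a log2 fold change of -0.63 ± 0.09 (SE, adjusted p = 7.91e-05), a call lost without Hira replicate 1 (-0.50) and without Ubn2 replicate 1 (-0.58). Ifitm2 was at 286 and 340.0 CPM in control, 205 and 225 after Hira, 269 and 347 after Ubn1 and 292 and 306 after Ubn2 depletion. Only the Hira libraries stood apart, at -0.55 ± 0.08 (SE), under the fold threshold, and -0.48 ± 0.08 (SE, adjusted p = 3.25e-04) against Ubn2. Of the exon bases of Ifitm2, 40.9% also belong to Gm45717 on the same strand, so its values are uncertain.

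Bst2 was at 58.6 and 66.5 CPM in control, 42.9 and 41.3 after Hira, 40.6 and 54.2 after Ubn1 and 61.8 and 65.4 after Ubn2 depletion. The Hira and Ubn1 libraries were below control and the Ubn2 libraries overlapped with it. Bst2 gave a log2 fold change of -0.58 ± 0.09 (SE) with Hira and -0.39 ± 0.11 (SE, adjusted p = 0.0276) with Ubn1. With Hira it missed the fold threshold narrowly and passed it without control replicate 1 (-0.66) or Hira replicate 1 (-0.61), and with Ubn1 it passed without Ubn1 replicate 2 (-0.62). Bst2 was lower with Hira than with Ubn2 at -0.60 ± 0.08 (SE, adjusted p = 7.94e-05), a call lost without Hira replicate 2 (-0.57) and without Ubn2 replicate 2 (-0.56).

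Ifit2, which binds viral RNA and slows translation, was at 3.36 and 4.23 CPM in control, 4.38 and 4.78 after Hira, 4.19 and 2.27 after Ubn1 and 2.42 and 2.33 after Ubn2 depletion. The Ubn2 libraries were below control and the Ubn1 libraries overlapped with it. With Ubn2 it fell with a log2 fold change of -0.67 ± 0.25 (SE, adjusted p = 0.0426). That call was lost without control replicate 2 (-0.49) and without Ubn2 replicate 1 (-0.69) or 2 (-0.64), and DESeq2 did not make it (adjusted p = 0.212). Ifit2 was higher with Hira than with Ubn2 by 0.94 ± 0.25 (SE, adjusted p = 0.00827), which was called whichever library was left out. Its relatives Ifit1 and Ifit3, the ubiquitin-like Isg15 and the Isg15 protease Usp18 had at most 10 counts in any library. The promoter windows of Ifit1, Ifit3 and Isg15 hold a match to the response element, and Usp18 has no entry.

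**Figure D3:**
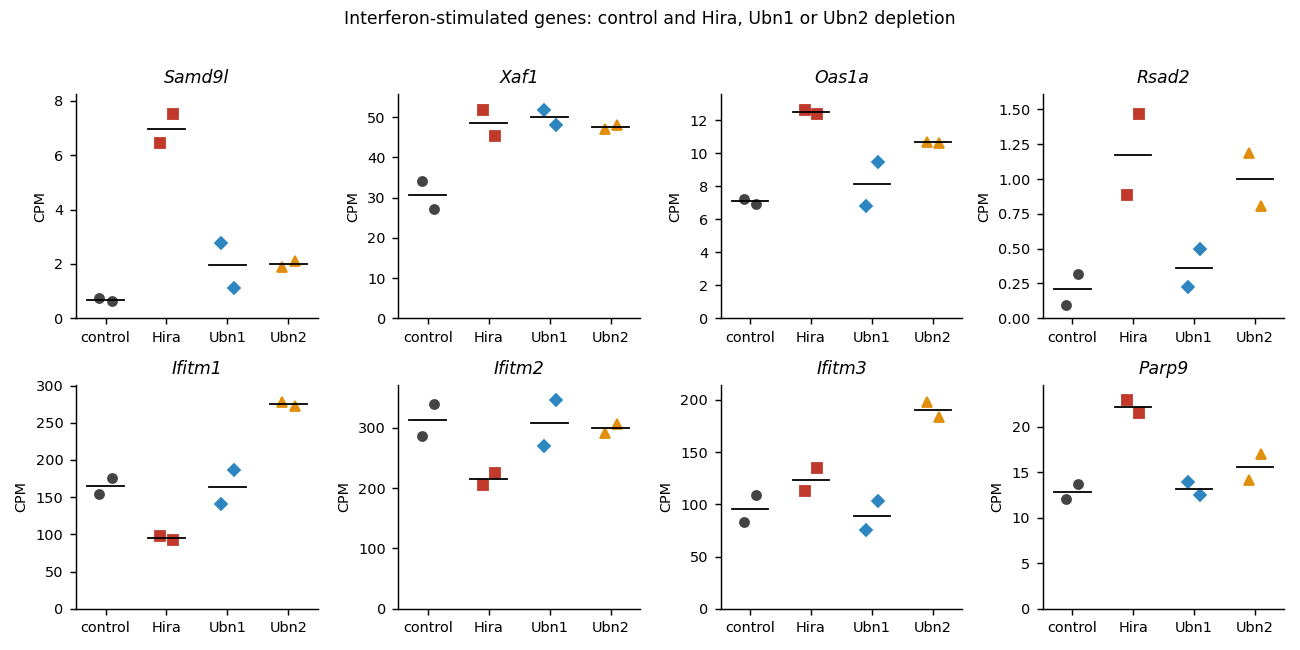
CPM on linear axes from 0 for 8 interferon-stimulated genes in control and after Hira, Ubn1 or Ubn2 depletion; each point is 1 library and the line is the mean of 2. Samd9l is highest with Hira, Xaf1 is above control in all 3 depletions, and Ifitm1 is lowest with Hira and highest with Ubn2.

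Of the 7 class I presentation genes, 5 were called higher with Hira and 4 with Ubn2, and 0 of the 6 tested with Ubn1, where DESeq2 also called 0 and 2 were lower at an unadjusted p under 0.05. Over all genes 10.8%, 9.59% and 1.53% were called higher in these comparisons. Neither edgeR nor DESeq2 called any of the 7 lower in a comparison. The median log2 fold change of those tested was 0.93 with Hira, -0.12 with Ubn1 and 0.86 with Ubn2. The summed level of the 7 genes was 166 and 159.8 CPM in control, 319 and 268 after Hira, 125 and 142 after Ubn1 and 250.5 and 269.8 after Ubn2 depletion. The Ubn2 libraries were above all control and Ubn1 libraries in this sum.

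H2-D1, a class I heavy chain, was at 58.0 and 51.7 CPM in control, 118 and 92.3 after Hira, 47.1 and 56.2 after Ubn1 and 115 and 120.3 after Ubn2 depletion. The Hira and Ubn2 libraries were separate from the control and Ubn1 libraries, which overlapped. H2-D1 gave a log2 fold change of 0.93 ± 0.10 (SE) with Hira. H2-D1 rose with Ubn2 by 1.12 ± 0.08 (SE, adjusted p = 6.07e-10) against control and by 1.19 ± 0.10 (SE, adjusted p = 4.63e-07) against Ubn1. Both calls held whichever library was left out.

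H2-K1, the other classical heavy chain, gave a different order. It was at 76.5 and 75.0 CPM in control, 141 and 122 after Hira, 47.7 and 55.8 after Ubn1 and 86.3 and 91.2 after Ubn2 depletion. No pair of groups overlapped, with Hira highest and Ubn1 lowest. H2-K1 gave a log2 fold change of 0.79 ± 0.08 (SE) with Hira, -0.54 ± 0.10 (SE, adjusted p = 6.33e-04) with Ubn1 and 0.25 ± 0.07 (SE, adjusted p = 0.0109) with Ubn2, both Ubn values under the fold threshold. The Ubn1 value passed it without Ubn1 replicate 2 (-0.66). H2-K1 was higher with Ubn2 than with Ubn1 by 0.79 ± 0.10 (SE, adjusted p = 3.51e-05). Hira exceeded Ubn2 by 0.56 ± 0.08 (SE, adjusted p = 1.14e-04), under the fold threshold, which it passed without Hira replicate 2 (0.66) or Ubn2 replicate 2 (0.60). Of the 50-base words of H2-K1 and H2-D1, 9.63% and 12.8% occur in other genes, most often in H2-Q10 and H2-Q1.

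B2m, the light chain that all class I molecules need, was at 18.4 and 18.3 CPM in control, 25.3 and 22.6 after Hira, 19.9 and 17.0 after Ubn1 and 29.9 and 35.9 after Ubn2 depletion. The Ubn2 libraries were the highest, followed by Hira, and the Ubn1 libraries spanned control. B2m gave a log2 fold change of 0.38 ± 0.12 (SE) with Hira, under the fold threshold. B2m rose with Ubn2 by 0.86 ± 0.12 (SE, adjusted p = 5.54e-06) against control and by 0.84 ± 0.13 (SE, adjusted p = 2.65e-04) against Ubn1. Hira was below Ubn2 with a log2 fold change of -0.46 ± 0.12 (SE, adjusted p = 0.00652), under the fold threshold, which it passed without Ubn2 replicate 1 (-0.59).

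Psmb9, Tap1, Psmb8 and Tap2 lie next to each other in the class II region of chromosome 17. Tap1 and Tap2 pair to form the peptide transporter. Tap1, at chr17:34187553-34197225, was at 5.40 and 5.95 CPM in control, 15.8 and 17.1 after Hira, 4.37 and 5.69 after Ubn1 and 11.5 and 13.6 after Ubn2 depletion. Hira and Ubn2 libraries were above all control and Ubn1 libraries. Tap1 gave a log2 fold change of 1.51 ± 0.16 (SE) with Hira. Tap1 rose with Ubn2 by 1.15 ± 0.17 (SE, adjusted p = 1.63e-05) against control and by 1.32 ± 0.19 (SE, adjusted p = 1.44e-04) against Ubn1. Hira exceeded Ubn2 by 0.38 ± 0.14 (SE, adjusted p = 0.0447), under the fold threshold.

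Tap2, at chr17:34203527-34216321, was at 2.68 and 2.80 CPM in control, 9.06 and 7.28 after Hira, 2.46 and 2.73 after Ubn1 and 2.29 and 3.44 after Ubn2 depletion. Here only the Hira libraries stood apart, and the Ubn2 libraries spanned control. Tap2 gave a log2 fold change of 1.57 ± 0.22 (SE) with Hira and 0.07 ± 0.27 (SE, adjusted p = 0.858) with Ubn2, with an interval of -0.47 to 0.61. The direct comparison of Hira with Ubn2 gave 1.52 ± 0.24 (SE, adjusted p = 2.08e-04) and was called whichever library was left out. An annotated long noncoding gene on the other strand, Gm15821, covers 14.1% of the exon bases of Tap2.

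Psmb8 and Psmb9 are catalytic subunits of the immunoproteasome. Psmb8 was close to the detection limit, with 2 and 1 counts in control. It was at 0.0974 and 0.0318 CPM in control, 1.13 and 0.473 after Hira, 0.0455 and 0.154 after Ubn1 and 0.731 and 0.607 after Ubn2 depletion. The Hira and Ubn2 libraries were above all control and Ubn1 libraries. The ratio to control was 15.1 (95% counting interval 4.85 to 75.7) with Hira and 11.6 (95% counting interval 3.60 to 59.8) with Ubn2. The Ubn2 call was lost without control replicate 2 (2.72). Against Ubn1 the log2 fold change of Ubn2 was 2.64 ± 0.74 (SE), and this call was lost on leaving out any of the 4 libraries, with log2 fold changes between 2.09 and 3.72. In each of these comparisons Psmb8 passed the filter through the group where it was high, so its p is not given. For the same reason the ratios and their intervals are a description and not a test. The intervals leave out the spread between libraries, which held 37 and 10 counts after Hira depletion. The antisense gene Gm20496 overlaps 14.7% of its exon bases.

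Psmb9 was at 4.77 and 6.02 CPM in control, 8.82 and 6.24 after Hira, 3.10 and 3.96 after Ubn1 and 4.94 and 4.65 after Ubn2 depletion. Hira libraries were the highest and Ubn1 libraries the lowest. Psmb9 gave a log2 fold change of 0.48 ± 0.21 (SE) with Hira, -0.61 ± 0.23 (SE, adjusted p = 0.106) with Ubn1 and -0.16 ± 0.21 (SE, adjusted p = 0.571) with Ubn2. Hira exceeded Ubn2 by 0.66 ± 0.21 (SE, adjusted p = 0.0249), a call lost without Hira replicate 1 (0.38) and without Ubn2 replicate 2 (0.62), and not made by DESeq2 (adjusted p = 0.0910). The constitutive subunits Psmb5, Psmb6 and Psmb7, which Psmb8 and its relatives replace, were not called by edgeR or DESeq2 in any comparison, with 2 past an unadjusted p of 0.05 with Hira, 1 in Hira against Ubn2 and 0 in the rest, and summed to between 534 and 607 CPM.

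**Figure D4:**
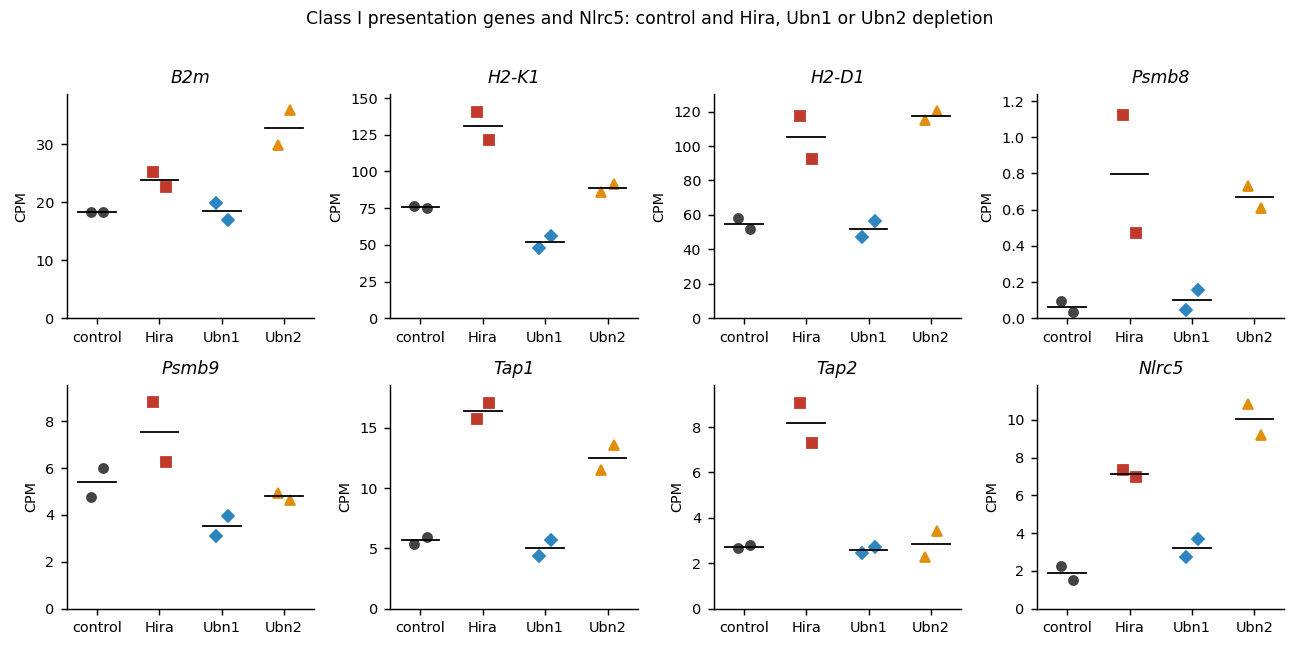
CPM on linear axes from 0 for the 7 class I presentation genes and for Nlrc5 in control and after Hira, Ubn1 or Ubn2 depletion; each point is 1 library and the line is the mean of 2. H2-D1, Tap1, Psmb8 and Nlrc5 are high with both Hira and Ubn2, Tap2 with Hira alone, and H2-K1 is lowest with Ubn1.

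Nlrc5, the transactivator of class I genes, is no member and belongs to a list of 26 further genes of class I presentation in the table. It was at 2.24 and 1.53 CPM in control, 7.36 and 6.95 after Hira, 2.73 and 3.69 after Ubn1 and 10.8 and 9.21 after Ubn2 depletion. The Hira and Ubn2 libraries were above all control and Ubn1 libraries. Nlrc5 rose with Ubn2 by 2.46 ± 0.23 (SE, adjusted p = 3.58e-08) against control and by 1.64 ± 0.21 (SE, adjusted p = 5.13e-05) against Ubn1. Nlrc5 gave a log2 fold change of 1.95 ± 0.25 (SE) with Hira. Of this list, 19 genes were tested with Ubn2, 3 rose and 2 fell, which are 15.8% and 10.5% beside 9.59% and 8.75% over all genes. With Ubn1 1 rose and 1 fell of 20 tested, beside 1.53% and 1.56% of all genes. With Hira, 10 of 21 tested were called higher and 0 lower, beside 10.8% and 5.4% of all genes. DESeq2 called 8 and 0, and 14 were higher and 0 lower at an unadjusted p under 0.05.

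The nonclassical chain H2-M5 rose with Ubn1 and Ubn2. It was at 43.6 and 46.9 CPM in control, 43.3 and 54.2 after Hira, 71.6 and 66.5 after Ubn1 and 108 and 95.0 after Ubn2 depletion. The log2 fold changes were 0.62 ± 0.10 (SE, adjusted p = 1.33e-04) and 1.18 ± 0.08 (SE, adjusted p = 5.96e-10). The former missed the fold threshold without control replicate 1 (0.58) and without Ubn1 replicate 1 (0.55). H2-Q2, another class I chain, was at 2.34 and 2.45 CPM in control, 6.14 and 4.26 after Hira, 1.55 and 1.73 after Ubn1 and 0.274 and 0.607 after Ubn2 depletion. It fell with Ubn2, with a log2 fold change of -2.43 ± 0.42 (SE, adjusted p = 9.67e-05).

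The interferon genes were at or below the detection limit. All 21 on the list, of types I, II and III, had at most 2 counts in every library and did not pass the filter, and 19 had 0 counts throughout. Ifnk had 2 counts in 1 control library and Ifnl2 1 count in 1 Hira library. In each library 3 counts correspond to 0.0917 to 0.152 CPM, which bounds what could be seen for a single gene and covers counting error only. The receptor chain Ifnar1 lay at 38.3 to 44.4 CPM and the kinase Jak1 at 49.98 to 68.5 CPM.

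Of the 15 receptors, kinases, factors and inhibitors of interferon signalling, 1 was called higher and 2 fell of 15 tested with Ubn2, and 0 rose and 2 fell of 14 tested with Ubn1. With Hira, 2 were called higher and 1 lower. Over all genes, 9.59% were called higher and 8.75% lower with Ubn2, 1.53% and 1.56% with Ubn1, and 10.8% and 5.4% with Hira. The 1 gene higher with Ubn2 was Irf2, described below. Irf8, a factor of the IRF family, was at 5.84 and 7.45 CPM in control, 4.68 and 3.26 after Hira, 2.82 and 3.54 after Ubn1 and 1.23 and 1.57 after Ubn2 depletion. It fell with a log2 fold change of -1.06 ± 0.23 (SE, adjusted p = 0.00286) with Ubn1 and -2.24 ± 0.26 (SE, adjusted p = 6.62e-07) with Ubn2, the former not called without control replicate 2 (-0.88). Socs3, an inhibitor of JAK signalling, was at 341 and 234 CPM in control, 292 and 168 after Hira, 176 and 195 after Ubn1 and 182 and 194 after Ubn2 depletion. It fell, with changes of -0.62 ± 0.12 (SE, adjusted p = 6.43e-04) with Ubn1 and -0.59 ± 0.11 (SE, adjusted p = 2.46e-04) with Ubn2 on the log2 scale. Without control replicate 1 the changes were -0.31 and -0.29, without Ubn1 replicate 1 -0.56 and without Ubn2 replicate 1 -0.54, none of them called. Irf2 had 1 count in each control library and lay at 0.503 and 1.01 CPM after Ubn2 depletion, a ratio of 19.3 (95% counting interval 4.92 to 167). It passed the filter through the Ubn2 libraries alone, so its p is not given, and the ratio and its interval are a description and not a test.

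Among 22 further sensors, adaptors and kinases of innate immunity in the table, 17 were tested with Ubn2 and 1 was called, and 5 of 18 with Hira, all higher. Over all genes, 9.59% were called higher with Ubn2 and 10.8% with Hira. With Ubn1, edgeR and DESeq2 called 0 of 18, and 5 were higher and 2 lower at an unadjusted p under 0.05. There, edgeR called 1.53% of all genes higher and 1.56% lower. Myd88, the adaptor of Toll-like receptors, was at 8.03 and 7.29 CPM in control, 14.2 and 15.7 after Hira, 11.3 and 10.3 after Ubn1 and 12.5 and 13.1 after Ubn2 depletion. It rose with Ubn2 by 0.76 ± 0.16 (SE, adjusted p = 5.57e-04).

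Of a further 79 interferon-stimulated genes, 45 were tested with Ubn2, where 6 rose and 5 fell, with a median log2 fold change of 0.05. These are 13.3% and 11.1% of the genes tested, near the 9.59% and 8.75% over all genes. DESeq2 called 3 higher and 5 lower. With Ubn1 1 rose of 42 tested and DESeq2 called 0, with a median of 0.10. With Hira 14 were called higher and 3 lower of 47, with a median of 0.53. Calls with Ubn2 lost on leaving out a library were Ifi35, Gbp4 and Parp10 (higher) and Helz2 (lower), and Trafd1 (higher), Igtp and Slfn5 (lower) were gained. Those lost with Hira were Gbp2, Lgals3bp, Lgals9, Tor3a and Ube2l6 (higher) and Ifitm5 (lower), and Herc6 and Tdrd7 (higher) were gained. The call with Ubn1, Ube2l6, was also lost. Over all genes 1.53% were called higher with Ubn1, and 10.8% higher and 5.4% lower with Hira. Slfn9, of the Schlafen family, was at 15.0 and 18.4 CPM in control, 7.66 and 8.94 after Hira, 16.8 and 16.0 after Ubn1 and 6.90 and 7.64 after Ubn2 depletion, and fell with Ubn2, with a log2 fold change of -1.19 ± 0.16 (SE, adjusted p = 3.73e-06). Oas3, an oligoadenylate synthetase, was at 4.72 and 5.73 CPM in control, 6.93 and 7.28 after Hira, 5.87 and 6.30 after Ubn1 and 1.69 and 2.58 after Ubn2 depletion, and fell with a change of -1.29 ± 0.26 (SE, adjusted p = 4.22e-04) on the log2 scale. Irgm1, an immunity-related GTPase, was at 0.876 and 1.15 CPM in control, 2.25 and 2.98 after Hira, 2.14 and 1.499 after Ubn1 and 3.52 and 2.58 after Ubn2 depletion, and rose by 1.59 ± 0.33 (SE, adjusted p = 5.62e-04).

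Some markers of other cell types were called in each depletion, and in bulk RNA a change in the number of cells cannot be told apart from a change per cell. Over all genes, 10.8% were called higher and 5.4% lower with Hira, 1.53% and 1.56% with Ubn1, and 9.59% and 8.75% with Ubn2. The 10 white blood cell markers summed to 121 to 126 CPM in control, 161 to 175 after Hira, 179 to 191 after Ubn1 and 309 CPM in both Ubn2 libraries. Most of this sum was Laptm5, at 96.5 and 91.5 CPM in control and 248 and 246 after Ubn2 depletion (1.41 ± 0.07, SE, adjusted p = 3.97e-12), and Cd68, at 16.0 and 18.1 CPM in control, 32.6 and 34.4 after Hira and 46.1 and 47.2 after Ubn2 depletion (1.47 ± 0.10, SE, adjusted p = 8.39e-10). The defining leukocyte markers Ptprc, Adgre1, Lyz2 and Tyrobp were at or below 0.152 CPM in every library. With Hira, Cd68 was the one blood marker called, and Kdr and Tek were called higher among the 8 endothelial markers. With Ubn2, 6 of the endothelial markers were tested, and Kdr, Cdh5 and Tek were called higher. Cdh5 passed the filter through the Ubn2 libraries alone, so its call is a description and not a test. Kdr was at 1.36 and 1.37 CPM in control, 3.80 and 4.73 after Hira and 9.32 and 6.63 after Ubn2 depletion. Tek was at 14.2 and 13.0 CPM in control, 42.5 and 42.8 after Hira and 21.6 and 21.8 after Ubn2 depletion. Cdh5 was at 0.146 and 0.0955 CPM in control and 3.43 and 1.47 after Ubn2 depletion. The sum of the 8 was 128 to 132 CPM in control, 129.7 to 134 after Hira and 129.5 to 135 after Ubn2 depletion. This sum stayed level while Kdr and Tek rose, so the endothelial markers not named here were together lower after both depletions. At an unadjusted p under 0.05, 1 of the 8 was lower with Hira and 1 with Ubn2, and edgeR and DESeq2 called 0 lower.

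Of the 10 fibroblast markers, 8 were tested with Ubn2, where 4 were called higher and 2 lower (9.59% and 8.75% over all genes). Of the 4, at least Col3a1 and Col1a2 passed the filter through the Ubn2 libraries alone and could be tested only because they were higher there. The count called higher is therefore a description and not a test. With Hira 5 were tested, and Col1a1 and Fbn1 were called higher and Pdgfrb lower (10.8% and 5.4% over all genes). Their sum was 48.1 to 52.7 CPM in control, 60.6 to 66.8 after Hira, 46.5 to 58.2 after Ubn1 and 43.7 to 49.3 after Ubn2 depletion. Col3a1 had 0 counts in control and 6.72 and 4.10 CPM after Ubn2 depletion, Col1a2 went from 0.292 and 0.382 to 3.15 and 1.77 CPM, and Pdgfrb from 18.7 and 23.2 to 7.27 and 7.59 CPM. With Ubn1, the fibroblast markers gave 1 higher and 1 lower call, the white blood cell markers 1 higher, and the endothelial markers 0 by edgeR and DESeq2, with 1 higher at an unadjusted p under 0.05. The 10 ESC markers summed to 7093 to 7478 CPM in control, 6341 to 6443 after Hira, 6429 to 6512 after Ubn1 and 6080 to 6204 after Ubn2 depletion. With Ubn2, Tdgf1 (1516 and 1594 CPM in control, 885 and 903 after depletion) and Dppa5a (1302 and 1308 CPM in control, 813 and 898 after depletion) were called lower, the latter not without Ubn2 replicate 1 (-0.52 on the log2 scale). The part of these cells or states in the values of the interferon and class I genes was not tested.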

How the data were processed

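RNA-seq was measured in 8 libraries, 2 for each of 4 conditions. The authors trimmed reads with Trim Galore, aligned them with STAR to GRCm38, counted them on genes with featureCounts and deposited the counts, not normalized, in 3 tables that list 55418 genes each. Versions, strand setting and the handling of reads that match several places are not given in the sources used here, so reads from overlapping genes on opposite strands and from near-identical copies cannot be assigned with certainty. The control columns were the same in the 3 tables, with 0 differing values, and were used once.

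Genes were tested with edgeR 4.0.16 in R 4.3.3 on the 4 libraries of each comparison, with TMM scaling (factors between 0.960 and 1.05), the filterByExpr filter, quasi-likelihood tests and Benjamini-Hochberg adjustment over all genes tested. The thresholds follow the study's methods, which used DESeq2. Errors are standard errors of the log2 fold change, and intervals of a fold change are 1.96 SE to each side. Intervals of ratios are exact at 95% and cover counting error only. The members, lists, comparisons and tests were chosen with earlier results of these data known. Values in every library are given for Samd9l and for each member called in any comparison. Of other lists, up to 3 called genes with the smallest adjusted p after Ubn1 or Ubn2 depletion are named. Ifnar1, Jak1, further cell type markers and constitutive proteasome subunits named beside these were chosen after their values were seen. Positions and exon overlaps come from GENCODE M21. Words of 50 bases shared between transcripts were counted in the same release. The script was tested on simulated data.

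Alternatives were DESeq2 1.42.0, its size factors, no filter, a stricter filter of 10 counts in every library, all 8 libraries in 1 fit, a replicate block, adjusted p alone, and each library left out in turn.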

Additional observations from a re-analysis of the deposited data

Results flagged for a closer look

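Called in opposite directions against control by Hira and Ubn2 depletion were 3 genes. Since they were picked for this on the same libraries, their difference between the depletions follows from the choice and is given as a description. Ifitm1 was lower with Hira and higher with Ubn2, and Hira over Ubn2 gave a log2 fold change of -1.54 ± 0.07 (SE). H2-Q2 was higher with Hira and lower with Ubn2, and the difference was 3.58 ± 0.38 (SE). H2-Q10, a secreted class I chain, was at 6.33 and 5.16 CPM in control, 12.8 and 11.8 after Hira and 2.92 and 3.74 after Ubn2 depletion, and the difference was 1.88 ± 0.19 (SE). H2-Q10 against control with Ubn2 was not called without control replicate 1 (-0.61) or Ubn2 replicate 1 (-0.58). Reads of H2-Q2 and H2-Q10 may be shared with other class I chains.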

How the results depend on the processing

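The 41 calls of members kept their direction in all 438 alternatives that gave them an adjusted p and stayed called in 404 of these. Adjusted p alone is among these alternatives and could lose no call, since it loosens the threshold of the main test. The calls of Hira against control, which took part in the choice, are included. The members called higher kept within 1.5 times their counts with Hira and Ubn2 and in Ubn2 against Ubn1, except by adjusted p alone in Hira against Ubn2, where 9 were higher and 8 lower instead of 4 and 4. The count called lower with Hira, 1 in the main test, was 2 with DESeq2, with its size factors and without a filter, 5 by adjusted p alone and 2 to 3 on leaving out a library. With Ubn1, 2 were called higher in the main test, 1 with DESeq2, which gave no adjusted p for Samd9l, and 0 to 2 on leaving out a library. The count lower with Ubn1 was 0, 2 by adjusted p alone and 0 to 2 on leaving out a library. The count lower with Ubn2 was 1, the gene Ifit2, 0 with DESeq2 and with all 8 libraries in 1 fit, 2 by adjusted p alone and 0 to 1 on leaving out a library. Ubn2 against Ubn1 had 0 lower and 1 by adjusted p alone. The cause of these changes was not tested beyond what each setting changes by construction.

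Replicate numbers are shared by the groups, but same-numbered libraries did not deviate together, with correlations across 19264 genes between -0.0986 and 0.0988 over 6 pairs of groups. The fit with the replicate block lost 0 and gained 0 member calls and moved 0 of 10 counts by more than 1.5 times. In the Ubn2 comparison it called 10 members higher and 1 lower. Genes under about 0.4 CPM, such as Psmb8, Oas1e and Rsad2 in control, rest on few counts.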

Other observations

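Class II presentation genes, which professional antigen-presenting cells use, were called in both directions. Of 12 genes, 6 were tested with Ubn2 depletion, with 1 called higher and 1 lower, beside 9.59% and 8.75% of all genes. H2-Ab1, the beta chain of I-A, was at 5.94 and 4.62 CPM in control, 9.31 and 5.15 after Hira, 4.33 and 6.69 after Ubn1 and 1.78 and 2.73 after Ubn2 depletion, and fell with Ubn2, with a log2 fold change of -1.203 ± 0.26 (SE, edgeR adjusted p = 9.21e-04). H2-Eb1, the beta chain of I-E, was at 0.779 and 0.350 CPM in control, 1.76 and 0.993 after Hira, 1.59 and 1.69 after Ubn1 and 1.37 and 2.38 after Ubn2 depletion. It rose by 1.61 ± 0.46 (SE, edgeR adjusted p = 0.0270) with Ubn1 and by 1.81 ± 0.47 (SE, edgeR adjusted p = 0.00397) with Ubn2. The call with Ubn1 was lost without control replicate 2 (1.07) and Ubn1 replicate 2 (1.57), and that with Ubn2 without Ubn2 replicate 2 (1.36).

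Samd9l lies near the start of chromosome 6, and no protein-coding gene at a lower coordinate was tested. The nearest one tested on the other side is Vps50, a subunit of endosomal tethering complexes, 98810 bases away. It was at 53.2 and 49.5 CPM in control, 68.3 and 74.3 after Hira, 39.3 and 36.9 after Ubn1 and 69.4 and 64.3 after Ubn2 depletion. Vps50 was not called against control in any depletion and was higher with Ubn2 than with Ubn1 by 0.82 ± 0.10 (SE, edgeR adjusted p = 2.08e-05).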
